A study of Homo sapiens with 24 samples.

Results

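The genes of the WNK-SPAK salt transport pathway were followed in a human kidney cell line exposed to the hormone FGF23, with and without its co-receptor Klotho. They were 10 of the 34305 genes listed, taken by gene symbol: the kinases WNK1, WNK2, WNK3 and WNK4, the kinases STK39 (SPAK) and OXSR1 (OSR1), the cotransporter SLC12A2, and KLHL3, CUL3 and NEDD4L of the ubiquitin system. All 10 were measured in all 4 deposited tables and all 10 passed the filter on low counts, among 17790 genes tested. The cells were HEK293, a line derived from human embryonic kidney, here called WT, and HEK293 cells stably transfected with Klotho, here called Kl. Recombinant human FGF23 was given to both lines in 2 regimens, 1 h at 0.5 nM and 24 h at 10 nM, and each time had its own untreated controls in both lines. With 3 libraries in each of 8 groups there were 24 libraries. The short exposure also had the lower dose, so an effect of time cannot be told apart from one of dose. The labels give neither the promoter that drives Klotho nor whether the Kl line is 1 clone, and they do not say that the libraries of a group came from separate cultures. The p-values reported here measure only the spread between these libraries, which may be technical.

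WNK kinases sense chloride and osmotic state. They phosphorylate SPAK and OSR1, which in turn phosphorylate cation-chloride cotransporters, turning the sodium-driven importers on and the potassium-driven exporters off. KLHL3 is the adaptor through which the CUL3 ubiquitin ligase recognises WNK kinases, and NEDD4L is a ligase that marks sodium channels and the thiazide-sensitive cotransporter for removal. In the distal nephron FGF23 has been reported to act on salt transport through WNK4. Much of this signalling runs through phosphorylation and protein turnover, which RNA levels do not measure.

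Total counts ran from 15849564 to 30446989 per library. KL, the Klotho gene, had 0 to 14 counts in the 12 WT libraries and at least 1003 CPM (read counts relative to library size, with TMM scaling) in every Kl library. In Kl cells the KL mean was 1203 CPM in 1 h controls and 1931 CPM after 1 h of FGF23. At 24 h it was 1008 CPM in Kl controls and 1862 CPM after FGF23, so treated and control Kl cells also differed in KL. Of 11 genes listed for the HEK293 line 10 had a mean of at least 1 CPM. None of 9 distal nephron and collecting duct markers did, and their summed level was 0.645 to 1.91 CPM, so the labelled kidney epithelium lacked the distal transporters on which this pathway is best known. The 3 Kl libraries treated for 1 h stood apart by their spread: the median SD of log2 CPM over genes was 0.227 there and 0.0842 to 0.123 in the other 7 groups. The test estimates 1 spread per gene from all 24 libraries, and this may be too small for those 3. Fits restricted to the libraries of a comparison, which also change the filter, the scaling and the residual degrees of freedom, are given where they change a call. In bulk RNA, fewer cells of a type and less RNA per cell cannot be told apart.

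By mean level per kilobase of gene model, WNK1 was the most abundant of the genes and KLHL3 the least. Without division by length WNK4 had the lowest mean, 4.04 CPM against 4.92 CPM for KLHL3. The WNK1 level per kb was above that of STK39 in 21 of 24 libraries. Per kilobase of gene model, WNK1 had a mean level of 20.5 CPM per kb over the 24 libraries, with 16.6 in the lowest and 25.8 in the highest. STK39 followed at 17.0, OXSR1 at 10.5, SLC12A2 at 9.37, CUL3 at 9.20 and NEDD4L at 4.13 CPM per kb. The other 3 WNK kinases were lower, WNK2 at 2.93, WNK3 at 1.17 and WNK4 at 0.794 CPM per kb, and KLHL3 was at 0.415, so the highest and lowest levels differed 49.3-fold. The step from STK39 to OXSR1, that from CUL3 to NEDD4L and that from WNK2 to WNK3 held without overlap over all 24 libraries. SLC12A2 and CUL3 were not separable, since SLC12A2 was above CUL3 in 14 of 24 libraries and their order was reversed in the Kl cells treated for 1 h. The order of the genes was otherwise the same in all 8 groups. At the low end WNK4 rested on 43 to 140 counts per library and KLHL3 on 68 to 150, against 3788 to 10033 for WNK1.

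**Figure D1:**
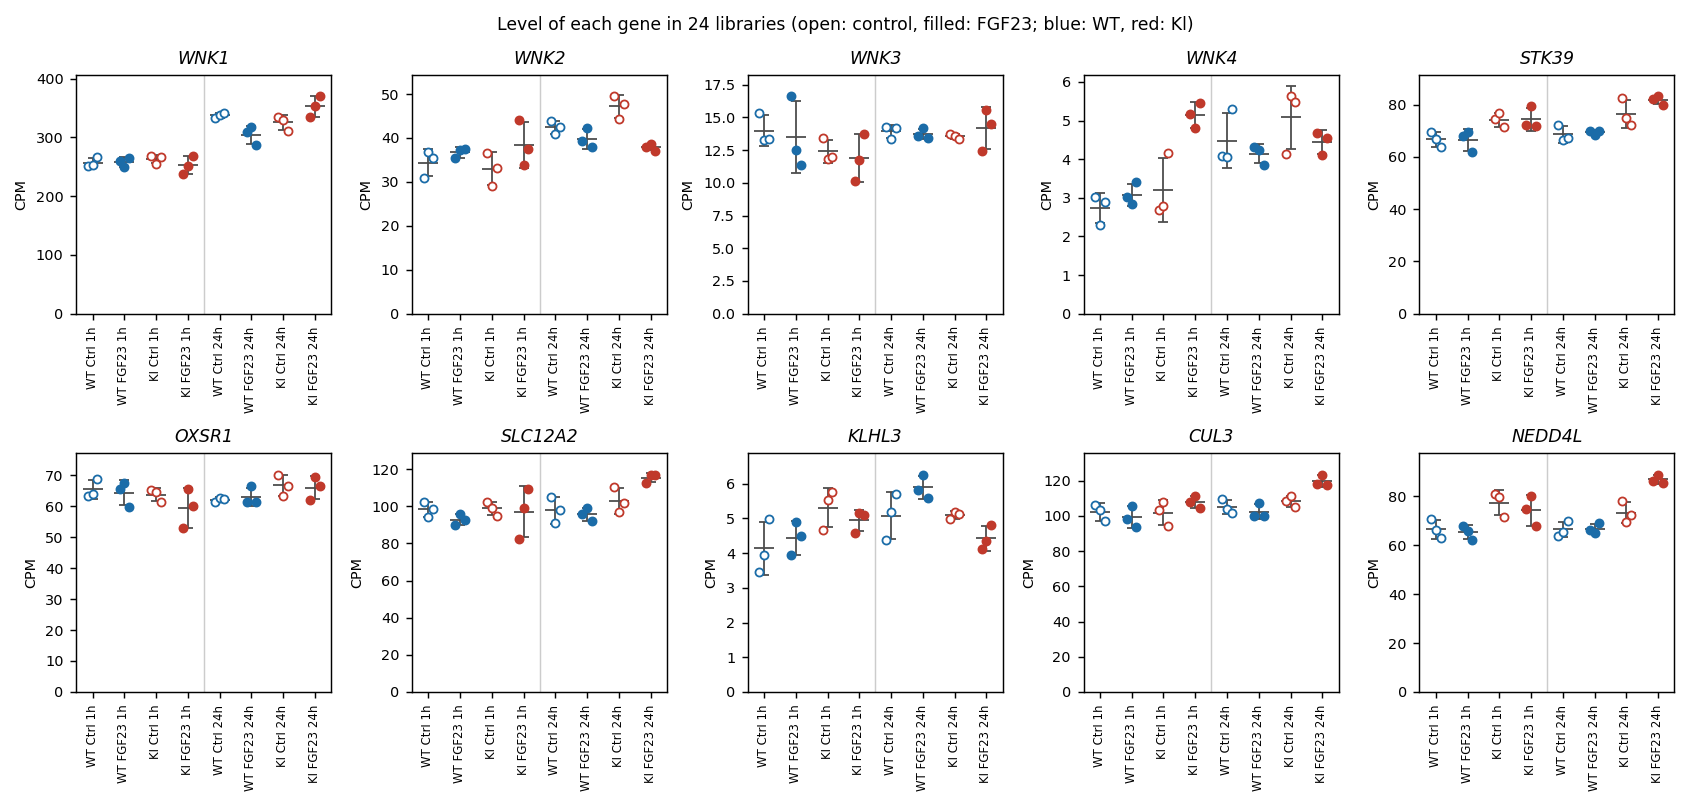
Level of each of the 10 genes in CPM (y axis, from 0) in the 24 libraries, by group (x axis). Each point is a library, open for control and filled for FGF23, blue for WT and red for Kl, and the bars are the group mean and SD of 3 libraries. WNK1, WNK2 and WNK4 sit higher in the 24 h controls than in the 1 h controls of both lines, and NEDD4L is highest in the Kl cells treated for 24 h, at 85.6 to 88.9 CPM.

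Windows from 250 bases before to 50 bases after the annotated start, from RefSeq on GRCh38.p14, were at hand for 9 of the 10 genes, 16 windows in all and none for WNK4. They were searched on both strands for the letters GCGNGGGCG (EGR), TGANTCA (AP-1), CCGGAA (ETS core), GGGCGG (GC box) and TGACGTCA (CRE). Those letters occur in 9.43%, 7.71%, 17.2%, 45.0% and 1.85% of all 35116 windows. The windows of WNK1 and WNK2 are shown because these kinases moved together between the control times, and the fourth of 5 NEDD4L windows because NEDD4L rose with FGF23 and this window holds the sole AP-1 match. Capitals mark GC boxes in the first pair and the AP-1 letters in the third, and each window is on the plus strand. They lie at chr12:752329-752628, chr9:93183889-93184188 and chr18:58221321-58221620.
WNK1: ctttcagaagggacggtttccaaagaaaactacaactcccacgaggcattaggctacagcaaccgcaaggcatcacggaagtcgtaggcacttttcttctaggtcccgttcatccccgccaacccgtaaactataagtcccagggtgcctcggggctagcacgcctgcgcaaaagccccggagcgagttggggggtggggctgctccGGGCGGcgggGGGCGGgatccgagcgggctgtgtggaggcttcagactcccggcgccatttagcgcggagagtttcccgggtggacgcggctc
WNK2: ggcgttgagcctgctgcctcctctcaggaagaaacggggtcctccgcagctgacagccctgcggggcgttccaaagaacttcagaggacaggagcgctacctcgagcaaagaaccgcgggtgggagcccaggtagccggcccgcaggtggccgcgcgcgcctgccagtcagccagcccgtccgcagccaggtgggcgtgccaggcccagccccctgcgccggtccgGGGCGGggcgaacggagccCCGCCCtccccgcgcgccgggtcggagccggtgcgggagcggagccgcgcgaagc
NEDD4L: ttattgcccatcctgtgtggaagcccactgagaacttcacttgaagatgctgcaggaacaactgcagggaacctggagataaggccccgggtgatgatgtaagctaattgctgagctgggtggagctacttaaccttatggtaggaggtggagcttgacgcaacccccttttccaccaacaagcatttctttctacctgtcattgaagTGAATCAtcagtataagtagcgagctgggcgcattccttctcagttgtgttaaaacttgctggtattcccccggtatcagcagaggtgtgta
WNK1 and WNK2 each held 2 GC boxes, letters found in 45.0% of all windows, and neither held the EGR, AP-1, ETS or CRE letters. GC boxes also occurred in windows of WNK3, STK39, OXSR1, SLC12A2, KLHL3 and CUL3 and were not particular to this pair. The AP-1 letters were in 1 of the 16 windows, beside 7.71% of all windows, and a link to the FGF23 effect was not tested. The WNK2 window lies upstream of the gene start in the deposited annotation. The NEDD4L window shown lies inside the gene, which starts at 58044367 in that annotation. Whether these starts are used in the cells was not tested. A match is a description of the sequence, and a missing match says only that those letters are not in that window.

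FGF23 changed none of the 10 genes in WT cells at either time in the fit to all 24 libraries. There 0% of all genes were called. With only the libraries of the comparison, WNK1 was called in WT at 24 h (adjusted p = 0.00615 in edgeR). In Kl cells WNK4 rose at 1 h, where 4.83% of all genes were called. The WNK4 call was lost with only the libraries of the comparison. At 24 h WNK2 fell and NEDD4L rose in Kl cells, where 8.57% of all genes were called. The 1 h and 24 h effects were not tested against each other. Fold changes here are of FGF23 over control, with the adjusted p from edgeR's quasi-likelihood test with Benjamini-Hochberg adjustment over all genes tested, and a gene is said to change where that p was under 0.05. Treated Kl cells were compared with Kl controls, and the same controls serve in the comparisons of lines and of times further on.

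**Figure D2:**
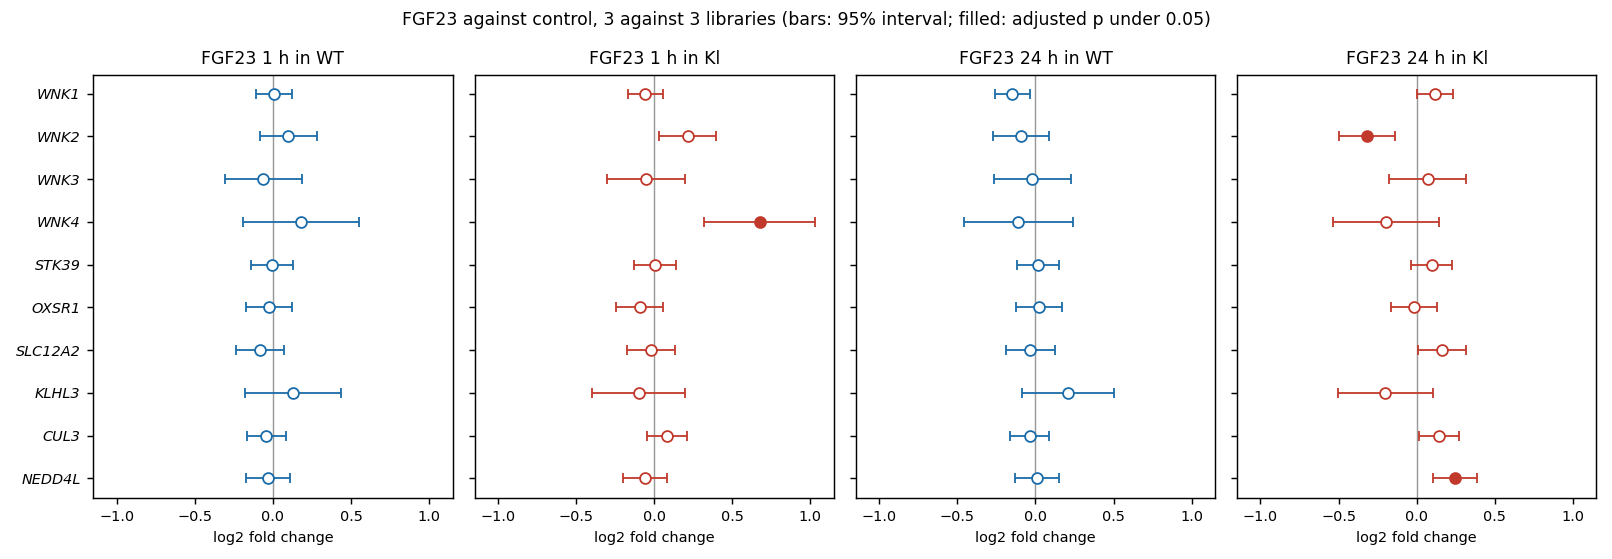
Log2 fold change of FGF23 over control (x axis) for each gene (y axis) in the 4 comparisons of 3 with 3 libraries. Bars are 95% intervals and filled points have an adjusted p under 0.05. The filled points are WNK4 at 0.68 in Kl cells at 1 h, and WNK2 at -0.32 and NEDD4L at 0.25 in Kl cells at 24 h.

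At 1 h in WT cells the log2 fold changes of the 10 genes ran from -0.08 for SLC12A2 to 0.18 for WNK4, with a median of -0.01. None was called by edgeR, DESeq2 or limma voom and none had an unadjusted p under 0.05, against 0% of all genes called. At 24 h in WT cells they ran from -0.15 for WNK1 to 0.21 for KLHL3 with a median of -0.03, and again none was called, against 0% of all genes. DESeq2 (0% of all genes) and voom (0.0112%) also called none of the 10, and WNK1 alone had an unadjusted p under 0.05. In Kl cells 1 of the 10 genes was called at 1 h, where 4.83% of all genes were called. At 24 h 2 of the 10 were called in Kl cells, where 8.57% of all genes were called. The median log2 fold change of the 10 genes in Kl cells was -0.04 at 1 h and 0.08 at 24 h, beside -0.01 and 0.00 over all genes tested.

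WNK4 is the WNK kinase best known from the distal convoluted tubule, where mutations cause familial hyperkalaemic hypertension. Its gene (ENSG00000126562) lies on GRCh38 chromosome 17 from 42780678 to 42796936 on the plus strand. In Kl controls at 1 h it stood at 2.67, 2.79 and 4.16 CPM, and after 1 h of FGF23 at 5.16, 4.80 and 5.46 CPM. All 3 treated libraries were above all 3 controls, of which the third was high. The mean went from 3.21 ± 0.828 to 5.14 ± 0.33 CPM (SD, n = 3 each), a 1.60-fold rise with a log2 fold change of 0.68 ± 0.174 (SE) and an adjusted p of 0.0195 in edgeR. Genes called higher were 3.90% of all genes in this comparison.

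The WNK4 call did not hold in every fit. With only the 6 libraries of the comparison, where 0.554% of all genes were called, its adjusted p was 0.355. With limma voom and a spread for each group, where 1.29% were called, it was 0.397. It was also 0.154 with those 6 libraries and the replicate number as a block, 0.105 without control replicate 1 and 0.131 without control replicate 2. In the authors' deposited table the adjusted p of WNK4 was 0.375. In WT cells WNK4 was at 3.01, 2.30 and 2.90 CPM in 1 h controls and at 3.01, 2.84 and 3.40 CPM after FGF23, and these groups overlap. The difference between the lines in the FGF23 effect at 1 h was 0.49 ± 0.253 on the log2 scale (95% interval -0.02 to 1.01, adjusted p = 0.624 in edgeR), so the rise was not shown to differ from WT.

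At 24 h WNK4 did not change with FGF23 in Kl cells. Controls stood at 4.13, 5.63 and 5.48 CPM and treated libraries at 4.67, 4.10 and 4.55 CPM, and the groups overlap. The log2 fold change was -0.20 ± 0.167 (SE) with an adjusted p of 0.550 in edgeR. Of the 5089 exon bases of WNK4, 816 are shared with COA3 on the opposite strand, and the stranding of the counts is not given in the sources used here. Reads of the pair may thus be mixed. COA3, which acts in cytochrome c oxidase assembly, had a mean of 83.5 CPM and a log2 fold change of 0.04 in Kl cells at 1 h (adjusted p = 0.754 in edgeR).

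WNK2, a WNK kinase abundant in brain, lies on chromosome 9 from 93184916 to 93320572 on the plus strand (ENSG00000165238). In Kl cells at 24 h the controls stood at 49.5, 44.4 and 47.8 CPM and the treated libraries at 37.9, 38.5 and 37.1 CPM. Every treated library was below every control, and the treated libraries lay within 2 CPM of each other. The mean went from 47.2 ± 2.59 to 37.9 ± 0.712 CPM (SD, n = 3 each), to 0.802 times the control level, with a log2 fold change of -0.32 ± 0.0882 (SE) and an adjusted p of 0.0195 in edgeR. Genes called lower were 3.66% of all genes here. The adjusted p was 0.000627 with only the libraries of the comparison, 0.000667 in the authors' deposited table, and 0.0572 to 0.108 when control replicate 1 or 3 or treated replicate 2 or 3 was left out of the fit to all libraries.

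In WT cells WNK2 did not change with FGF23. WT controls at 24 h were at 43.9, 40.9 and 42.6 CPM and WT libraries treated for 24 h at 39.3, 42.2 and 37.8 CPM, and these groups overlap. The FGF23 effect at 24 h differed between the lines by -0.23 ± 0.125 on the log2 scale, with an adjusted p of 0.391 in edgeR, and was not shown to differ. With the length trend removed in the fit to the 12 libraries of both comparisons it was -0.31 with an adjusted p of 0.00862, and without that removal the same libraries gave 0.0644. At 1 h in Kl cells WNK2 had a log2 fold change of 0.21 ± 0.09 and an adjusted p of 0.180. That p was 0.0225 without treated replicate 2, the lowest of the 3 treated libraries at 33.8 CPM.

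WNK1, the ubiquitous WNK kinase, lies on chromosome 12 from 752593 to 911452 on the plus strand (ENSG00000060237). At 24 h it stood at 334, 338 and 341 CPM in WT controls and at 309, 318 and 288 CPM in treated WT libraries. It stood at 335, 330.0 and 312 CPM in Kl controls and at 335, 354 and 370.1 CPM in treated Kl libraries. In WT every treated library was below every control, and in Kl the lowest treated library was just above the highest control.

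Neither line's WNK1 difference passed the test. The log2 fold change was -0.15 ± 0.0556 (SE) in WT, with an unadjusted p of 0.0129 and an adjusted p of 1.00 in edgeR, and 0.12 ± 0.0555 in Kl, with an adjusted p of 0.213. With only the libraries of each comparison these adjusted p were 0.00615 in WT, where 0.666% of all genes were called, and 0.0496 in Kl, where 19.3% were. The authors' deposited table gives WNK1 an adjusted p of 0.000862 in WT, where it has 211 genes under 0.05, and 0.0643 in Kl. The difference between the lines in the FGF23 effect was 0.26 ± 0.0786 (95% interval 0.10 to 0.43) with an adjusted p of 0.0533 in edgeR, where 3.78% of all genes were called. Across the alternatives that p ran from 0.000357 to 0.181, with 0.0125 in DESeq2, 0.000899 in voom and 0.000357 with only the 12 libraries of both comparisons, where 14.6% of all genes were called.

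The FGF23 effect also varied with gene length over all genes. Over 14996 genes the FGF23 effect at 24 h in WT fell with gene length, with a Spearman rho of -0.25 across genes, which are not independent replicates, and the 1724 genes of at least 10000 bases had a median log2 fold change of -0.04. WNK1 has 14370 bases. In WT at 1 h rho was -0.18, while the log2 fold change of WNK1 was 0.01. In Kl at 24 h rho had the opposite sign, 0.13. With the length trend removed its WT value was -0.10, with an adjusted p of 0.205 in the fit to its own libraries, and the difference between the lines was 0.19 with an adjusted p of 0.167 in the fit to all libraries. In the fit to the 12 libraries of both comparisons, with the length trend removed, that difference was 0.18 with an adjusted p of 0.00672. In Kl cells at 24 h WNK1 was not called with the length trend removed in the fit to the libraries of that comparison. The part of gene length in the result was not tested beyond this removal.

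WNK3, a WNK kinase that activates sodium-coupled chloride import in neurons and kidney, lies on chromosome X from 54192823 to 54358642 on the minus strand (ENSG00000196632). It was 10.1 to 16.6 CPM over the 24 libraries and did not pass the test in any of the 10 contrasts. Its log2 fold change in Kl cells at 24 h was 0.07 ± 0.12 (SE), with an adjusted p of 0.802 in edgeR.

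**Figure D3:**
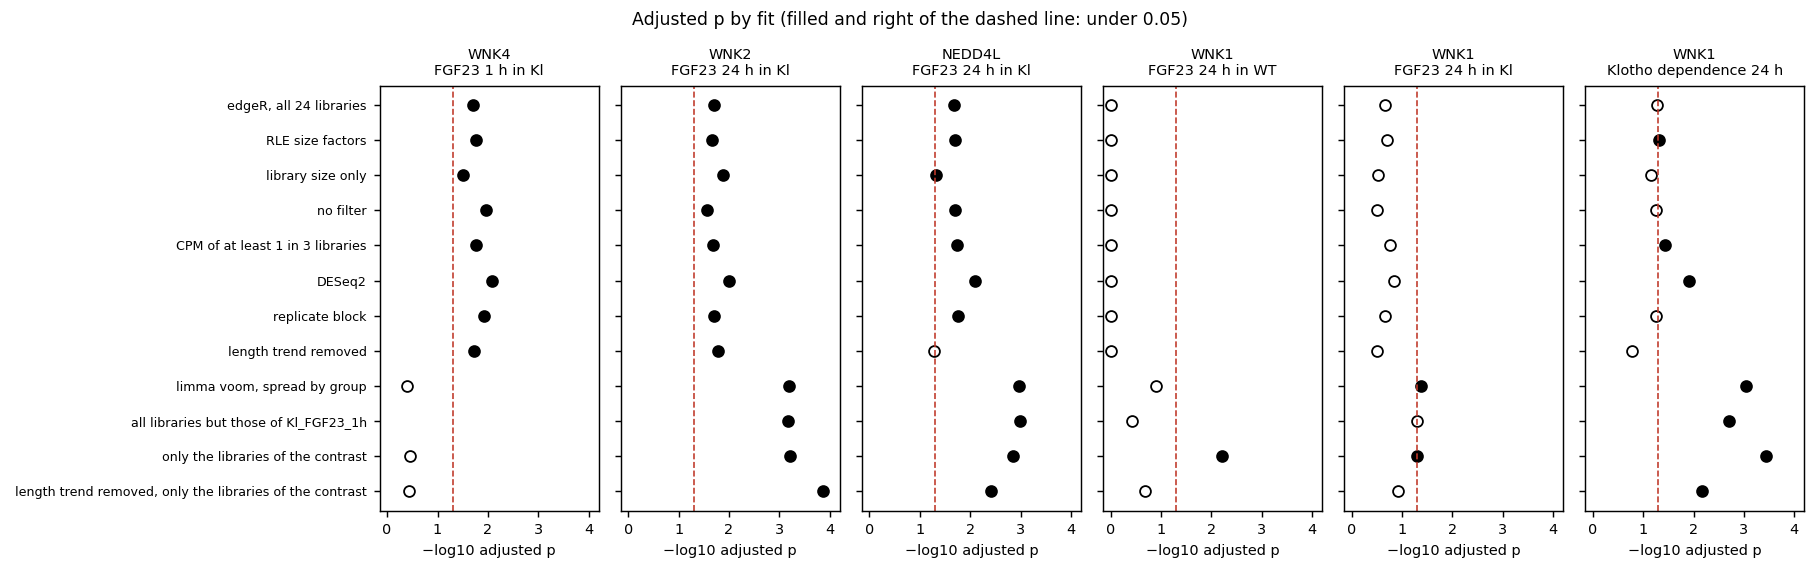
Minus log10 of the adjusted p (x axis) of 4 genes in 6 comparisons under the fits drawn (y axis), with filled points right of the dashed line under 0.05. Fits that would leave out the tested libraries have no point. WNK4 at 1 h falls below the line with voom (0.397) and with only the libraries of the comparison (0.355), whereas WNK2 at 24 h in Kl cells is above it in every fit drawn and WNK1 in WT passes in 1 of those drawn (0.00615); a replicate block on the same libraries, not drawn, gave 0.00835.

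SPAK and OSR1 are the kinases that carry the WNK signal to the cotransporters. STK39 lies on chromosome 2 from 167954020 to 168248141 on the minus strand (ENSG00000198648), and OXSR1 on chromosome 3 from 38165089 to 38255488 on the plus strand (ENSG00000172939). At 24 h in Kl cells STK39 was at 82.4, 74.9 and 72.1 CPM in controls and at 82.2, 83.2 and 79.95 CPM after FGF23. The groups overlap through control replicate 1, and the log2 fold change was 0.10 ± 0.0645 with an adjusted p of 0.420 in edgeR. OXSR1 was at 52.8 to 70.2 CPM over the 24 libraries. Its log2 fold change in Kl cells at 24 h was -0.02 ± 0.0719, with an adjusted p of 0.936 in edgeR.

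SLC12A2 encodes NKCC1, the sodium-potassium-chloride importer that SPAK and OSR1 activate, on chromosome 5 from 128083766 to 128189688 on the plus strand (ENSG00000064651). Its level in Kl cells at 24 h was 111, 96.7 and 102 CPM in controls and 113, 117 and 117 CPM after FGF23. All treated libraries were above all controls. The mean went from 103 ± 7.06 to 115.5 ± 2.54 CPM (SD, n = 3 each), with a log2 fold change of 0.16 ± 0.0751 and an adjusted p of 0.195 in edgeR, which did not pass. With only the libraries of the comparison the adjusted p was 0.0226, and in the authors' deposited table it was 0.0388. With the length trend removed in the fit to those libraries SLC12A2 was not called.

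NEDD4L is a HECT ubiquitin ligase that limits the epithelial sodium channel, on chromosome 18 from 58044367 to 58401540 on the plus strand (ENSG00000049759). In Kl cells at 24 h it was at 77.9, 69.5 and 72.3 CPM in controls and at 86.2, 88.9 and 85.6 CPM after FGF23. The treated libraries were all above the controls. The mean went from 73.3 ± 4.26 to 86.9 ± 1.75 CPM (SD, n = 3 each), a 1.19-fold rise with a log2 fold change of 0.25 ± 0.0688 (SE) and an adjusted p of 0.0210 in edgeR, where 4.91% of all genes were called higher. In WT cells at 24 h it stood at 63.7, 65.6 and 70.0 CPM in controls and at 66.3, 65.1 and 69.0 CPM after FGF23, and these groups overlap.

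The FGF23 effect on NEDD4L at 24 h differed between the lines by 0.24 ± 0.0978 on the log2 scale with an adjusted p of 0.203 in edgeR, and by this test it was not shown to differ. With only the 12 libraries of both comparisons the adjusted p was 0.0163, and with the length trend removed as well it was 0.201. The adjusted p of NEDD4L in Kl cells at 24 h was 0.0522 with the length trend removed in the fit to all libraries and 0.00389 with it removed in the fit to the libraries of the comparison. It was 0.0545 to 0.117 when control replicate 2 or 3 or treated replicate 2 or 3 was left out. NEDD4L has the longest gene model of the 10, with 17455 bases.

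CUL3, the scaffold of the ubiquitin ligase that KLHL3 guides to WNK kinases, lies on chromosome 2 from 224470150 to 224585397 on the minus strand (ENSG00000036257). After 24 h Kl cells had 109, 111 and 105 CPM in controls and 118, 123 and 117 CPM after FGF23. The groups did not overlap, and the mean went from 108.5 ± 3.12 to 119.7 ± 3.27 CPM (SD, n = 3 each). The log2 fold change was 0.14 ± 0.0613 with an adjusted p of 0.160 in edgeR, and 0.0300 with only the libraries of the comparison. In the authors' deposited table it was 0.0472. CUL3 was not called with the length trend removed in the fit to the libraries of the comparison. The FGF23 effect on CUL3 at 24 h differed between the lines by 0.18 on the log2 scale, with an adjusted p of 0.303 in edgeR, 0.0395 with only the 12 libraries of both comparisons and 0.246 with the length trend removed as well.

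KLHL3 lies on chromosome 5 from 137617500 to 137736090 on the minus strand (ENSG00000146021). The Kl controls at 24 h were at 4.98, 5.19 and 5.11 CPM and the treated libraries at 4.12, 4.34 and 4.81 CPM. Treated libraries were all below the controls, yet at this depth the log2 fold change of -0.20 ± 0.149 did not pass, with an adjusted p of 0.477 in edgeR. WT cells had 4.36, 5.18 and 5.70 CPM in 24 h controls and 5.83, 6.26 and 5.59 CPM after FGF23. The difference between the lines was -0.41 ± 0.207 on the log2 scale, with an adjusted p of 0.335 in edgeR.

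None of the 10 genes passed the test of a difference between the lines in the FGF23 effect, at either time. At 1 h 0.736% of all genes were called in that test and none of the 10 had an unadjusted p under 0.05; DESeq2 (1.19% of all genes) and voom (0.495%) called none of them. At 24 h WNK1, CUL3 and NEDD4L had an unadjusted p under 0.05, DESeq2 called 1 of the 10 (4.99% of all genes) and voom called 2 (12.9%). The WT and Kl calls set side by side above do not by themselves show that an effect needs Klotho.

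Without FGF23, 3 of the 4 WNK kinases differed between the collection times. WNK1, WNK2 and WNK4 were higher in 24 h controls than in 1 h controls of both lines, 3 of the 10 genes in each, and none was lower. All genes called in this comparison were 12.5% in WT and 12.9% in Kl, with 6.08% and 6.82% higher. In the labels the 1 h libraries carry codes starting with A and the 24 h libraries codes starting with B. The meaning of the letters is not given, and a batch that went with time could not be told apart from it.

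WNK1 stood at 252, 253 and 266 CPM in WT controls at 1 h and at 334, 338 and 341 CPM at 24 h, a 1.31-fold rise with a log2 fold change of 0.39 ± 0.0556 (adjusted p = 2.78e-05 in edgeR). In Kl controls it went from 268, 255 and 267 CPM to 335, 330.0 and 312 CPM, a log2 fold change of 0.31 ± 0.0559 (adjusted p = 0.000657). In neither line did the groups overlap. Genes of at least 10000 bases had a median log2 fold change of 0.09 in WT and 0.04 in Kl, and with the length trend removed WNK1 was still called in WT at 0.29.

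WNK2 went from 30.9, 36.8 and 35.4 CPM to 43.9, 40.9 and 42.6 CPM in WT controls, a log2 fold change of 0.31 ± 0.0879 (adjusted p = 0.0194 in edgeR). In Kl controls it went from 36.6, 29.1 and 33.2 CPM to 49.5, 44.4 and 47.8 CPM, a log2 fold change of 0.52 ± 0.0903 (adjusted p = 0.000442). All 24 h controls were above all 1 h controls of their line. In WT the call was lost with the length trend removed, at 0.21 and an adjusted p of 0.146, and when control replicate 1 of 1 h (0.159) or replicate 1 (0.0788) or 3 (0.0602) of 24 h was left out.

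WNK4 in WT controls went from 3.01, 2.30 and 2.90 CPM to 4.09, 4.06 and 5.30 CPM, a log2 fold change of 0.71 ± 0.172 (adjusted p = 0.00608 in edgeR), without overlap. In Kl controls it went from 2.67, 2.79 and 4.16 CPM to 4.13, 5.63 and 5.48 CPM, and there the groups overlap. The Kl log2 fold change was 0.66 ± 0.179 (adjusted p = 0.0145). The WT call was lost without replicate 2 of 1 h (adjusted p = 0.0509) or replicate 3 of 24 h (0.0601). The Kl call was lost without replicate 1 or 2 of 1 h or replicate 2 or 3 of 24 h, with adjusted p of 0.0672 to 0.0866. COA3, which shares exon bases with WNK4, had log2 fold changes of -0.15 in WT (adjusted p = 0.0941) and 0.05 in Kl (adjusted p = 0.608). In Kl cells the 1 h FGF23 level of WNK4, 5.14 ± 0.33 CPM, was close to the 24 h control level of 5.08 ± 0.824 CPM (SD, n = 3 each), values that were not tested against each other.

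**Figure D4:**
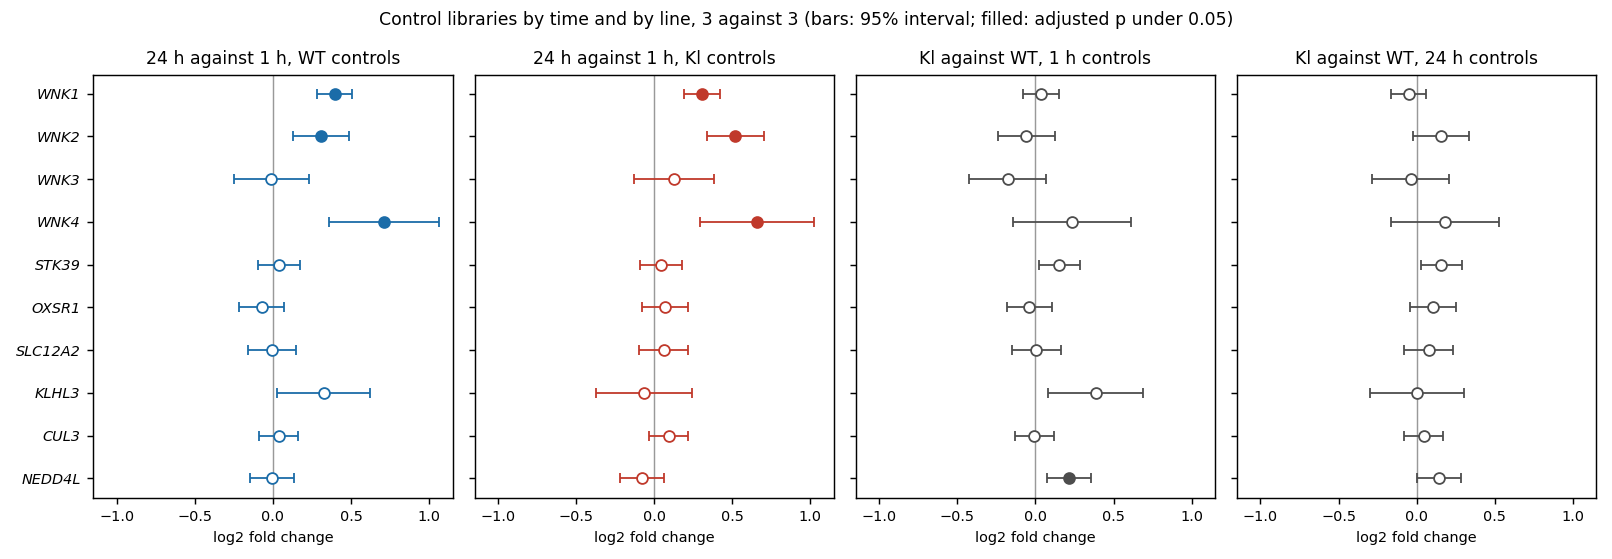
Log2 fold change (x axis) of each gene (y axis) between control libraries, 3 against 3, by time in each line and by line at each time. Bars are 95% intervals and filled points have an adjusted p under 0.05. WNK1, WNK2 and WNK4 are filled in both comparisons of times, and NEDD4L at 0.21 is the single filled point between the lines.

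Between the lines without FGF23, NEDD4L was higher in Kl at 1 h. It stood at 70.6, 66.3 and 62.9 CPM in WT and at 80.9, 79.6 and 71.5 CPM in Kl, without overlap. The log2 fold change of Kl over WT was 0.21 ± 0.069 with an adjusted p of 0.0316 in edgeR. It was 1 of the 10 genes called, against 16% of all genes, of which 7.43% were higher. The call was lost with scaling by library size only (0.0546), without the filter (0.0871), and without WT replicate 2 (0.0887) or 3 (0.141) or Kl replicate 1 (0.147) or 2 (0.115).

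At 24 h none of the 10 genes was called between the control lines, against 23.5% of all genes. STK39 was at 72.3, 66.5 and 67.0 CPM in WT and at 82.4, 74.9 and 72.1 CPM in Kl, and its log2 fold change was 0.16 ± 0.065 with an adjusted p of 0.0777 in edgeR. NEDD4L had 0.14 ± 0.0694 and an adjusted p of 0.148. STK39 was the single one of the 10 with an unadjusted p under 0.05, and DESeq2 called none of the 10 (24% of all genes). With only the libraries of the comparison WNK2, STK39 and NEDD4L were called, where 41.1% of all genes were.

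Over the 24 libraries STK39 moved with NEDD4L (Pearson r = 0.883 of log2 CPM) and with CUL3 (0.807), and NEDD4L with CUL3 (0.711). These points share libraries and groups, and the values are a description. WNK4 had the widest range of group means of the 10, 0.917 on the log2 scale. Among 14996 genes searched, its log2 CPM was most like that of DNAJB1 (r = 0.893), a chaperone of the HSP40 family, followed by HMGXB3 (0.849) and NPHP4 (0.838), over 24 libraries.

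The wider pathway was described with 44 further genes, of which 32 passed the filter. Of 7 other cation-chloride cotransporter genes 5 were tested, of 12 kinase regulators all 12, of 7 ubiquitin ligase partners all 7, and of 18 distal transport and hormone genes 8. The genes not tested included SLC12A3 and SLC12A1, the thiazide-sensitive and the loop-diuretic-sensitive cotransporters, with at most 2 and 5 counts in any library. The epithelial sodium channel genes SCNN1A, SCNN1B and SCNN1G were also among them. FGF23 in WT cells called 0 of the 32 at 1 h and 0 at 24 h by edgeR, DESeq2 and voom, with none at an unadjusted p under 0.05 in edgeR.

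In Kl cells at 1 h 3 of the 32 rose and none fell, where 4.83% of all genes were called and 3.90% were called higher. They were HSD11B2, which inactivates cortisol in mineralocorticoid target cells, at 0.63 ± 0.15 on the log2 scale (adjusted p = 0.0104 in edgeR), TSC22D2, of the TSC22 family that binds WNK pathway proteins, at 0.39 ± 0.104 (0.0228), and SLC12A7, a potassium-chloride exporter, at 0.28 ± 0.0811 (0.0446). HSD11B2 went from 3.05, 3.01 and 3.75 CPM to 5.28, 4.53 and 5.46 CPM without overlap. In WT cells at 1 h the HSD11B2 mean was 4.82 CPM in controls and 5.73 CPM after FGF23, also without overlap but not called. TSC22D2 went from 28.7, 26.4 and 26.7 CPM to 42.8, 29.1 and 36.2 CPM, also without overlap. SLC12A7 went from 97.5, 89.3 and 87.7 CPM to 134, 92.1 and 107 CPM, and there the groups overlap. Its log2 fold change was 0.12 without treated replicate 1, the highest library. With only the libraries of the comparison none of these 3 calls held, and in the order HSD11B2, TSC22D2 and SLC12A7 the adjusted p were 0.322, 0.466 and 0.661. Leaving out control replicate 2 also ended all 3 calls (0.0749, 0.106 and 0.166), and leaving out control replicate 3 (0.0752 and 0.139) or treated replicate 1 (0.111 and 0.282) ended those of TSC22D2 and SLC12A7. The SLC12A7 call was also lost without 1 of 6 libraries of the other groups, with adjusted p of 0.0506 to 0.0545. In the test of a difference between the lines in the FGF23 effect at 1 h, 0 of the 32 were called. The lowest adjusted p there was 0.391 in edgeR, and 0.736% of all genes were called.

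In Kl cells at 24 h 3 of the 32 rose and 2 fell, where 4.91% of all genes were called higher and 3.66% lower. NEDD4, the close relative of NEDD4L, went from 38.4, 39.1 and 33.3 CPM to 50.1, 58.1 and 52.5 CPM, a log2 fold change of 0.54 ± 0.102 (adjusted p = 0.00064 in edgeR). ATP1B1, the beta subunit of the sodium pump, went from 52.0, 46.8 and 49.4 CPM to 66.0, 70.3 and 65.6 CPM, a log2 fold change of 0.45 ± 0.0776 (adjusted p = 0.000225). In both genes all treated libraries were above all controls.

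SGK1, the aldosterone-induced kinase that phosphorylates NEDD4L, went from 2.83, 2.63 and 2.80 CPM to 4.12, 4.52 and 4.51 CPM, a log2 fold change of 0.67 ± 0.19 (adjusted p = 0.0222 in edgeR). That call was lost without any 1 of the 3 controls or without treated replicate 2 or 3, with adjusted p of 0.058 to 0.085. SLC12A9, an atypical member of the cotransporter family, fell from 37.8, 35.0 and 38.3 CPM to 29.9, 27.5 and 25.8 CPM, with a log2 fold change of -0.42 ± 0.0963 (adjusted p = 0.00436). NRBP2, a pseudokinase related to the WNK kinases, fell from 22.0, 24.2 and 25.8 CPM to 19.1, 17.1 and 17.0 CPM, with a log2 fold change of -0.44 ± 0.0863 (adjusted p = 0.000945). The median log2 fold change over the 32 genes was -0.06.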

How the data were processed

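RNA was isolated on Nucleospin columns and made into libraries with an NEBNext Ultra kit, per the labels' protocols. The deposited tables, 1 per FGF23 comparison, hold raw counts per gene, which were used here. Per the file headers they also hold FPKM values and the authors' log2 fold changes, p-values and adjusted p-values. The authors' signal columns are these counts scaled by library size factors. The aligner, counter, annotation release and stranding are not given in the sources used here. The submitters' processing notes name the build mm10, whereas the gene IDs and coordinates are human and those of all 10 genes match GENCODE on GRCh38.

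Counts of all 24 libraries were joined by gene ID. Genes missing from a table were set to 0 there, and none of them had over 30 counts in another table. Of 34305 genes, 17790 passed filterByExpr and were tested with edgeR 4.0.16 (R 4.3.3, Python 3.11.15): robust quasi-likelihood F tests after TMM scaling, 8 group means, 16 residual degrees of freedom, 10 contrasts and Benjamini-Hochberg adjustment over all tested genes at 0.05. CPM uses the TMM factors. Intervals are 95%. Simulated data, with 1 spread per gene for all groups, were used to test the fits for FGF23 in Kl at 24 h only. They covered edgeR, DESeq2, voom, the replicate block, the removed length trend and the fit to the libraries of the comparison. The other contrasts and settings were not simulated. DESeq2 1.42.0, limma 3.58.1 voom and the settings named in the closing section were alternatives.

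Replicate numbers are shared between groups in the labels, which do not say that they pair libraries. Between treated and control Kl libraries at 1 h, the deviations from the group mean had correlations of 0.123, 0.226 and 0.135 for equal numbers. These values are a hint from the data, and the fit behind the reported calls used no pairing. In the other FGF23 comparisons not every pair exceeded 0.1. Blocking on the number left the WNK4 call at 1 h in place in the fit to all libraries (adjusted p = 0.0117).

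The genes, lists and alternatives were chosen with earlier results of these data known. Named were all 10 genes, the 3 genes whose log2 CPM was most like that of the member with the widest range of group means, and listed pathway genes that were called. The blocks fitted to the libraries of a comparison were added after the values were seen. A few listed pathway genes are not reported here.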

Additional observations from a re-analysis of the deposited data

Results flagged for a closer look

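In 3 of the 32 further pathway genes tested, the FGF23 effect at 24 h differed between the lines by the test of that difference in edgeR, where 3.78% of all genes were called. NEDD4, the ligase related to NEDD4L, had log2 fold changes of 0.54 in Kl and -0.08 in WT, a difference of 0.62 ± 0.144 (adjusted p = 0.0105). ATP1B1, the sodium pump subunit, had 0.45 in Kl and -0.04 in WT, a difference of 0.48 ± 0.109 (adjusted p = 0.00804). SLC12A9, the atypical cotransporter family member, had -0.42 in Kl and 0.09 in WT, a difference of -0.51 ± 0.139 (adjusted p = 0.0325). The levels that FGF23 left in Kl cells were near those of WT for ATP1B1, with 67.3 ± 2.61 CPM in treated Kl and 69.0 CPM in WT controls. They were above WT for NEDD4, with 53.5 ± 4.11 against 44.7 CPM in WT controls. SLC12A9 had 27.7 ± 2.04 CPM in treated Kl and 22.9 CPM in WT controls, beside 37.0 CPM in Kl controls. The levels in treated Kl were not tested against those in WT controls. NEDD4 and ATP1B1 kept their calls in each of 35 alternatives. SLC12A9 lost its call without control replicate 1 or 2 or treated replicate 1 or 2 of WT, or control replicate 1 or 3 or treated replicate 2 or 3 of Kl, with adjusted p of 0.0752 to 0.133.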

How the results depend on the processing

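No result changed direction past its threshold under any alternative. Fits to only the libraries of a comparison moved the count of called genes among the 10 for FGF23 from 0 to 1 in WT at 24 h, from 1 to 0 in Kl at 1 h, from 2 to 5 in Kl at 24 h, from 0 to 3 for the difference between lines at 24 h and from 0 to 3 between control lines at 24 h. With the length trend removed as well, these last 2 counts were 2 and 3, and that in Kl at 1 h was 0. For FGF23 in Kl at 24 h that fit called WNK2 and NEDD4L alone. With voom, in the same order from Kl at 1 h, the counts were 0, 5, 2 and 3, where 1.29, 17.9, 12.9 and 36.9% of all genes were called. Without the Kl libraries treated for 1 h they were 4 for FGF23 in Kl at 24 h, 2 for the difference between lines at 24 h, 2 between control lines at 1 h and 1 at 24 h, where 17.9, 10.9, 25.4 and 33.1% of all genes were. The length trend removed from all libraries gave 1 for FGF23 in Kl at 24 h and 1 between control lines at 24 h. RLE factors, the stricter filter (1 CPM or more in 3 libraries) and DESeq2 each gave 1 for the difference between lines at 24 h. Library size only and no filter each gave 0 between control lines at 1 h. The cause was not tested.

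The replicate number as a block in the fit to all libraries left every count as it was (0, 0, 1, 2, 0, 0, 1, 0, 3 and 3). As a block with only the libraries of the comparison it gave 1 for FGF23 in WT at 24 h, 0 in Kl at 1 h and 4 in Kl at 24 h. Same-numbered libraries correlated best with each other in all 3 pairs at 1 h in WT (0.0695, 0.119 and 0.170), a hint from the data and not the design.

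Leaving out each library in turn gave 0 to 0 called genes for FGF23 in WT at 1 h and at 24 h, 0 to 2 in Kl at 1 h, 0 to 3 in Kl at 24 h, 0 to 0 and 0 to 1 for the difference between lines at 1 h and 24 h, 0 to 2 and 0 to 1 between control lines, 1 to 3 for the times in WT and 2 to 3 in Kl. WNK1 and WNK2 between the control times in Kl kept their calls in all 35 alternatives. Over all genes, FGF23 in Kl at 1 h called 859 genes, against 90 with only its own libraries, 229 with voom and 1197 in DESeq2, and at 24 h 1524 against 3128 and 3177 with voom. Depth limits WNK4 and KLHL3 most, with 43 to 150 counts per library.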

Other observations

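Without FGF23 some genes of the wider pathway list differed between the lines. In 24 h controls SLC12A9, PPP1R1A, CAND1, COPS5 and NR3C2, the mineralocorticoid receptor gene, were higher in Kl, against 23.5% of all genes called. SLC12A4, SLC12A7, SGK1 and ATP1B1 were lower there, and 11.5% of all genes were called higher and 12% lower. In 1 h controls SLC12A7, ATP1B1, HSD11B2, CALB1 and PVALB were lower in Kl, against 16% of all genes called and 8.55% called lower. There CALB1 had 2 to 7 counts per library in Kl and 11 to 19 in WT. PVALB had 0 to 5 in Kl and 9 to 22 in WT, so both are near the floor. SLC12A4 and SLC12A7 encode potassium-chloride exporters. ATP1B1 and SLC12A7 were lower at both times.

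Between the control times, where 12.5% of all genes were called in WT and 12.9% in Kl, 2 of the 32 were higher at 24 h in WT, SLC12A4 and TSC22D2, and 3 were lower, RBX1, CAND1 and NEDD8, which act in cullin ligases. In Kl 3 were higher, SLC12A9, TSC22D2 and HSD11B2, and 0 were lower.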
